A study of Homo sapiens with 14 samples.

Results

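SMOC1 and SMOC2 are secreted calcium-binding glycoproteins of the SPARC family, followed here in 22Rv1, a human prostate cancer cell line, in which FOXA1 was lowered, degraded or mutated. They were taken by name from each of the 4 deposited count tables, 2 genes among 57904 features in the knockdown table, 57905 in each degradation table and 20243 in the mutant table. SMOC1 had counts in all 14 libraries and SMOC2 had 0 counts in every one, so 1 of the 2 entered the fits. Both genes were chosen by their CPM in each library and their direction in all 4 comparisons, so their own values are given as a description, with no test.

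Matricellular proteins are secreted into the extracellular matrix, where they modulate signalling between cells and matrix more than they build the scaffold. SMOC1 and SMOC2 each combine a follistatin-like domain, a pair of thyroglobulin type-1 domains and a calcium-binding domain shared with SPARC. SMOC1 is a component of basement membranes, its frog counterpart antagonizes bone morphogenetic protein (BMP) signalling, and inherited loss of human SMOC1 disturbs eye and limb development. SMOC2 is known in mouse as a marker gene of Lgr5-positive intestinal stem cells.

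The study set out 7 groups of 2 libraries. In the first pair of groups, cells carried lentiviral knockdown of FOXA1 (shFOXA1) or a control lentivirus (shCtrl), with unedited FOXA1. In the degradation series, cells with wild-type FOXA1 fused to a dTAG degron were taken at 0 h, 1 h and 24 h. A dTAG degron lets a small molecule send the fused protein to the proteasome. In the last pair, cells of the same FOXA1_dTAG background were labelled R219S or WT. R219S is a substitution in the forkhead DNA-binding domain. The labels do not say whether the R219S and WT cells received the degrader or its solvent, nor whether each line is 1 clone, and shCtrl libraries are titled 22Rv2 where their other labels say 22Rv1. FOXA1 opens chromatin for other factors, the androgen receptor among them, in luminal prostate cells.

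Library totals ran from 21560090 to 38465155 counts. FOXA1 transcript stood at 298.5 and 304.8 counts-per-million (CPM) in shFOXA1, against 402.3 and 434.5 CPM in shCtrl, and fell by 0.47 ± 0.062 on the log2 scale (edgeR adjusted p = 0.000275). Its log2 fold change at 1 h was -0.01 ± 0.033 (adjusted p = 0.941, not called), and it rose by 0.23 ± 0.039 at 24 h (adjusted p = 7.6e-06). A degron acts on protein, so these transcript values do not check the degradation. In R219S, FOXA1 transcript was at 703.3 and 681.2 CPM, against 1019 and 1032 CPM in WT (log2 fold change -0.57 ± 0.036, edgeR adjusted p = 1.28e-45). Among the luminal prostate markers, 0 of 16 were at 0 in any group. Endothelial markers summed to at most 1.01 CPM and leukocyte markers to at most 4.36 CPM per library.

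The promoters of both genes are shown because SMOC1 ranked among the more abundant transcripts outside the knockdown pair, where it was low, and SMOC2 gave no read anywhere. They are RefSeq sequences of build GRCh38.p14, from 250 bases before to 50 bases after the annotated start, plus strand, 5′ to 3′. Capitals mark matches on either strand to the TATA-like letters TTATAA, to the TATA box letters TATAAA, to the CCAAT box (the letters of its name) and to the GC box GGGCGG. SMOC1 lies at chr14:69879166-69879465 and SMOC2 at chr6:168440934-168441233 in this window.
SMOC1: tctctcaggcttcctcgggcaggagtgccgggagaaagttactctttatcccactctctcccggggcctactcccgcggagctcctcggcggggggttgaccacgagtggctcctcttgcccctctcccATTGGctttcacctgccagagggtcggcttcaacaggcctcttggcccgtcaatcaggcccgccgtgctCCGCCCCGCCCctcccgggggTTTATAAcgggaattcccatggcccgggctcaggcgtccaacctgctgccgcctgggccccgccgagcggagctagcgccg
SMOC2: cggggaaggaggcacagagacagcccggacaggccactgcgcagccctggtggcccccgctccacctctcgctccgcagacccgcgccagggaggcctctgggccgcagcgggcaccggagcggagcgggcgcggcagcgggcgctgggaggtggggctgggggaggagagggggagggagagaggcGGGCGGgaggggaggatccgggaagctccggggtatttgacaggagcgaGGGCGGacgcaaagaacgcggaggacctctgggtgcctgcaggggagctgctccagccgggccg
In the SMOC1 window, TTATAA lay 30 to 25 bases before the start, overlapping a TATAAA match on the other strand. TTATAA is present in 5.31% of the 27305 RefSeq promoters of this length, and TATAAA in 12.0%. The SMOC1 window also held CCAAT on the minus strand, present in 35.7% of promoters, and 2 matches to GGGCGG, present in 44.6%. The SMOC2 window held 2 GGGCGG matches, 0 of CCAAT and 0 of either TATA-like form. The forkhead letters TGTTTAC, found in 3.41% of promoters, had 0 matches in either window. Their variants TGTTTGC, found in 3.87% of promoters, and TATTTAC, found in 2.77%, also had 0. The androgen receptor motif AGAACA, found in 14.9%, and the AP-1 letters TGACTCA, found in 4.92%, had 0 matches too. The SMOC2 window had the higher G+C content, 75.0%, against 67.7% in SMOC1, while their ratios of observed to predicted CpG were 0.706 for SMOC2 and 0.712 for SMOC1. These matches describe the letters in the window and do not locate bound factors.

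SMOC1 was the gene of the pair with a transcript. Its highest group mean, at 1 h, was 464.9 times its lowest, in shFOXA1, a ratio that crosses separately deposited tables. In the degradation series it stood at 694.9 and 693.7 CPM at 0 h, 826.2 and 844.9 CPM at 1 h, and 155.7 and 161.9 CPM at 24 h. It was thus highest at 1 h and lowest at 24 h, and no library of one time overlapped those of another. In R219S it stood at 473.5 and 460.0 CPM, against 93.84 and 95.05 CPM in WT. The R219S libraries were above both WT libraries. In the knockdown pair the level was far lower, at 2.02 and 1.58 CPM in shFOXA1, against 3.35 and 3.18 CPM in shCtrl. These came from 70 and 53 reads in shFOXA1, against 116 and 117 reads in shCtrl, and the groups did not overlap. In bulk RNA, fewer cells with a transcript and less transcript per cell cannot be told apart.

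**Figure D1:**
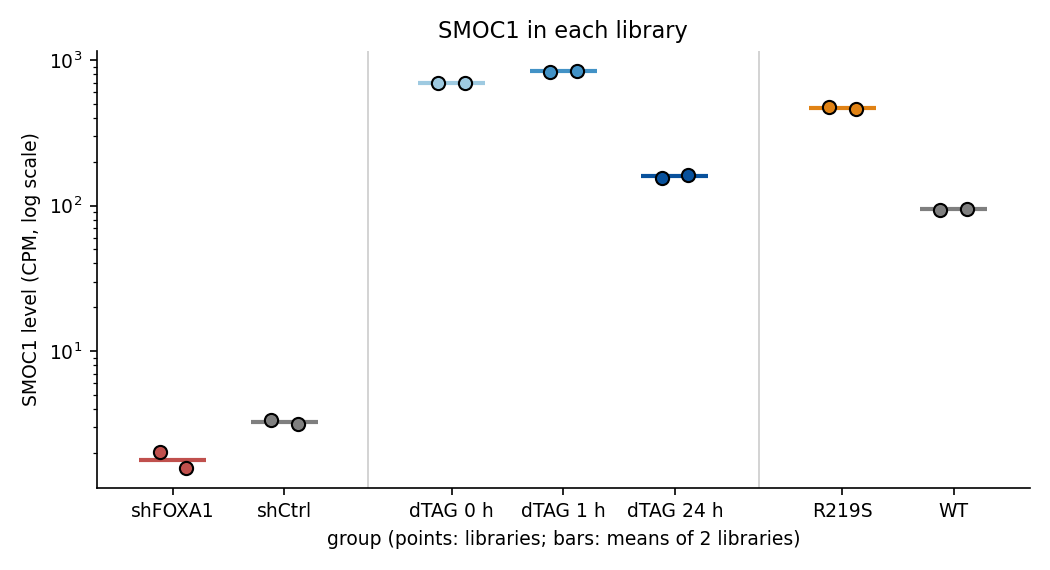
SMOC1 level in CPM on a log axis in each of the 14 libraries, with bars at the means of the 2 libraries of a group; vertical lines separate the knockdown, degradation and R219S tables. The degradation libraries lie at 694.9 and 693.7 CPM at 0 h and at 155.7 and 161.9 CPM at 24 h, the R219S libraries at 473.5 and 460.0 CPM, above WT, and the knockdown libraries at 3.35 CPM or below.

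SMOC1 was 4.37-fold lower at 24 h than at 0 h, with means of 158.8 ± 4.38 CPM at 24 h and 694.3 ± 0.849 CPM at 0 h (SD, n = 2 each) and a log2 fold change of -2.13 ± 0.037 (SE). Only 1.34% of the 19607 genes tested had a larger change in either direction. At 24 h, 46.9% of all genes tested were called and 70.8% had groups that did not overlap, so separated groups were the usual case. The direction at 1 h was the opposite: SMOC1 averaged 835.5 ± 13.2 CPM at 1 h, 1.20 times its 0 h level, with a log2 fold change of 0.27 ± 0.026. Of the 19397 genes tested at 1 h, 27.6% had a larger change in either direction, 19.8% were called and 56.4% did not overlap. From 1 h to 24 h the level was 5.26-fold lower (log2 fold change -2.40 ± 0.032), against a background of 45.7% of genes called. The 1 h and 24 h comparisons use the same 0 h libraries.

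The direction in R219S was the reverse of that at 24 h. SMOC1 averaged 466.8 ± 9.55 CPM in R219S and 94.4 ± 0.856 CPM in WT, 4.94 times as high, with a log2 fold change of 2.31 ± 0.042. It ranked 142nd from the highest of 13990 genes tested, and 2.78% of genes had a larger change in either direction. In that comparison 62.1% of genes were called and 79.4% did not overlap. The R219S log2 fold change exceeded that at 24 h by 4.43 ± 0.056, a difference that was not tested because both values chose the gene.

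The summed level of the fibroblast markers was higher in R219S, as SMOC1 was, mostly through 1 gene. The sum ran from 513.4 to 525.2 CPM in R219S, against 224.4 to 234.2 CPM in WT, and in every library of the other tables it was 37.2 CPM or lower. Without COL3A1, a fibrillar collagen chain, it ran from 236.9 to 243.9 CPM in R219S, against 218.6 to 227.2 CPM in WT. Most of that remainder was LUM, encoding lumican, at 180.3 and 186.4 CPM in R219S, against 170.2 and 163.9 CPM in WT (log2 fold change 0.13 ± 0.041). LUM averaged 10.1 CPM at 0 h and 1.06 CPM in shCtrl. COL3A1 had 276.5 and 281.3 CPM in R219S, against 7.03 and 5.86 CPM in WT (log2 fold change 5.41 ± 0.062, called by edgeR). DCN, encoding decorin, had 38.1 and 38.7 CPM in R219S, against 21.2 and 19.9 CPM in WT. COL1A1, another fibrillar collagen chain, went the other way, with 13.5 CPM in each R219S library, against 25.2 and 25.0 CPM in WT (log2 fold change -0.89 ± 0.083, edgeR adjusted p = 5.48e-24). Of the 11 markers, 7 were tested, 3 rose and 2 fell, with a median log2 fold change of -0.36, where 30.5% of all genes were called higher and 31.6% lower. The falls were those of COL1A1 and FBN1 (log2 fold change -1.05 ± 0.14, edgeR adjusted p = 6.38e-13 for FBN1). In both groups, 2 of the 11 markers, COL1A2 and THY1, had 0 counts. The part of these markers in the SMOC1 difference was not tested. In the degradation series the sum was 32.4 to 32.8 CPM at 0 h, 29.9 to 31.4 CPM at 1 h and 27.6 to 29.2 CPM at 24 h.

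With the knockdown, SMOC1 averaged 1.80 ± 0.313 CPM in shFOXA1 and 3.27 ± 0.119 CPM in shCtrl, 0.551 times as high (log2 fold change -0.86 ± 0.22). The direction was that at 24 h. Of the 19128 genes tested, 7.45% had a larger change in either direction, 23.6% were called (11.3% higher and 12.3% lower) and 63.4% had groups that did not overlap. The 24 h log2 fold change was lower than that of the knockdown by 1.27 ± 0.22. Doses of FOXA1 loss are not matched between the hairpin and the degron, so the values stand side by side.

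The starting level of SMOC1 differed between the control groups by more than any FOXA1 comparison moved it. Scaled by library total, it was 208.3 times as high at 0 h as in shCtrl, the 6th highest ratio of the 16247 genes set side by side. The median gene differed by -0.05 on the log2 scale. The 0 h level was also 7.23 times that in WT, although both groups carry the same genotype label. WT was in turn 28.8 times shCtrl, the 32nd highest of 12287 genes. R219S stood at 0.676 times the 0 h level. FOXA1 transcript differed between the control groups as well. By library total it was at 168.8 and 166.4 CPM at 0 h, 1021 and 1041 CPM in WT and 406.4 and 437.3 CPM in shCtrl. These ratios and levels cross tables that were deposited separately, and no test was made. Line, clone, culture and table cannot be told apart in them.

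Per length, SMOC1 was the most abundant matricellular transcript in 3 of the 7 groups. It had 158.9 ± 0.192 CPM per kilobase (kb) of exon at 0 h, 191.3 ± 3.02 at 1 h and 36.3 ± 1.02 at 24 h, where THBS1, encoding thrombospondin 1, stood above it at 39.2 ± 0.470 CPM per kb. In R219S it ranked 1st of the 24 matricellular genes with a row and a length, at 106.8 ± 2.19 CPM per kb. In WT it ranked 2nd at 21.6 ± 0.196 CPM per kb, behind SPOCK1, a SPARC-family proteoglycan, at 39.5 ± 1.16. In shFOXA1 it ranked 11th of 30 at 0.411 ± 0.071 CPM per kb, and in shCtrl 10th of 30 at 0.748 ± 0.027. Among all features with a length, SMOC1 ranked 148th and 154th by CPM per kb in the 0 h libraries, 128th and 123rd at 1 h and 1021st and 961st at 24 h, of 52338. In the mutant table it ranked 262nd and 276th in R219S, against 2167th and 2154th in WT, of 18678 features. In the knockdown pair it ranked only 16269th and 17078th in shFOXA1, against 14512th and 14544th in shCtrl, of 52337 features.

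**Figure D2:**
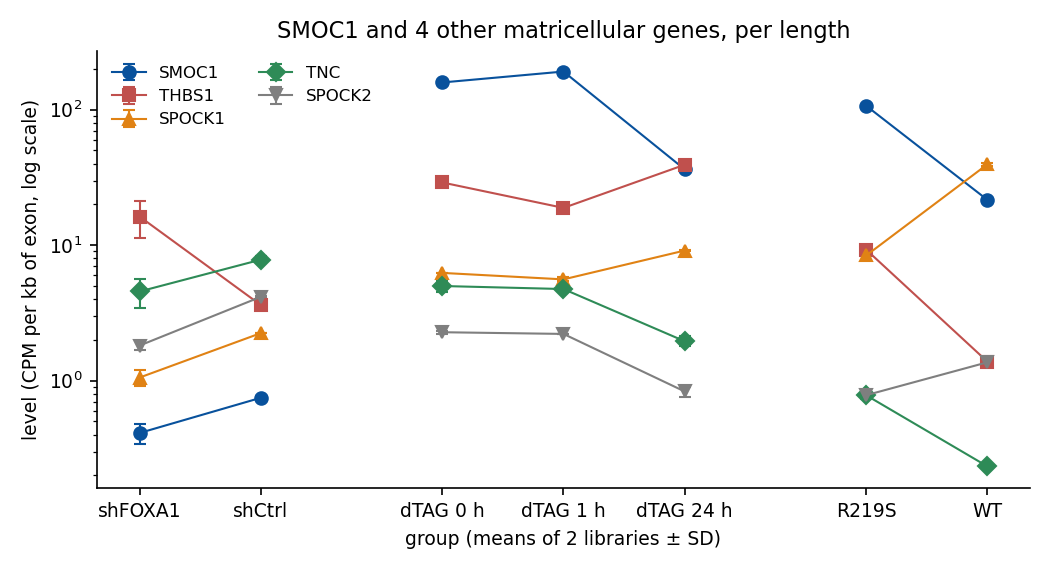
Mean level per kb of exon, on a log axis, of SMOC1, THBS1, SPOCK1, TNC and SPOCK2 in the 7 groups; error bars are SDs of 2 libraries and lines join groups of the same table. SMOC1 is the highest of the 5 at 0 h (158.9), 1 h (191.3) and R219S (106.8), below THBS1 at 24 h and below SPOCK1 in WT.

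SMOC2 gave no read in any of the 14 libraries. A count of 0 allows a level of up to 0.078 CPM in the deepest library and up to 0.139 CPM in the shallowest, taking 3 counts of the library total. That bound covers counting error only. No fold change can be given for it, and a response of SMOC2 to FOXA1 was not detectable at this depth. THBS2, the thrombospondin gene next to it, was at 0.337 CPM or lower on average in every group. DACT2, on its other side, averaged 0.014 CPM or lower. WDR27, the third gene past SMOC2, had mean levels of 41.0 to 72.1 CPM.

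SLC8A3, a plasma membrane sodium/calcium exchanger gene, is the next protein-coding gene beyond SMOC1 and lies on the opposite strand, 11850 bases away in the GENCODE 29 annotation. Its level was low, and it changed the way SMOC1 did in 2 of the comparisons. It averaged 1.35 ± 0.051 CPM at 24 h and 4.82 ± 0.181 CPM at 0 h, and fell by 1.83 ± 0.20 on the log2 scale (edgeR adjusted p = 3.16e-09). In R219S it averaged 1.78 ± 0.341 CPM, against 0.413 ± 0.107 CPM in WT, and rose by 2.16 ± 0.36 on the log2 scale (adjusted p = 1.1e-08). At 1 h it had 4.19 ± 0.087 CPM, against 4.75 ± 0.185 CPM at 0 h, a log2 fold change of -0.18 ± 0.16 that was not called (adjusted p = 0.492). SLC8A3 counts were 0.504% to 0.886% of SMOC1 counts in the degradation libraries, and 0.325% and 0.440% in R219S, against 0.359% and 0.513% in WT. In the knockdown pair, where SLC8A3 had 4 to 9 reads, they were 5.71% and 17.0% in shFOXA1, against 4.31% and 4.27% in shCtrl. The strand setting of the counting is not given in the sources used here, so whether those reads belong to SLC8A3 or to transcription running past SMOC1 was not tested.

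The remaining neighbours of SMOC1 were not called, had smaller changes than SMOC1 or had low levels. COX16, a cytochrome c oxidase assembly factor and the next gene after SLC8A3, was called in 0 of 4 comparisons, with log2 fold changes between -0.14 and 0.19. SUSD6, the third gene on the other side, was called in 0 of the 3 comparisons where it has a row. SRSF5, a splicing factor gene next to SUSD6, had log2 fold changes of 0.12 ± 0.036 at 24 h and -0.09 ± 0.039 in R219S, and 0.33 ± 0.066 in the knockdown (edgeR adjusted p = 0.00337), opposite to SMOC1 in all 3. Each of these calls was lost under at least 1 alternative. SLC10A1, a bile acid transporter gene and the nearest one upstream, averaged 0.814 CPM or less in every group. It was called lower at 1 h, opposite to SMOC1, with a log2 fold change of -1.24 ± 0.46 (edgeR adjusted p = 0.0428). That call was lost with no filter on low counts and with any 1 library left out. RPL7AP6, a ribosomal protein pseudogene on the opposite strand within SMOC1, overlaps 0 of its exons.

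**Figure D3:**
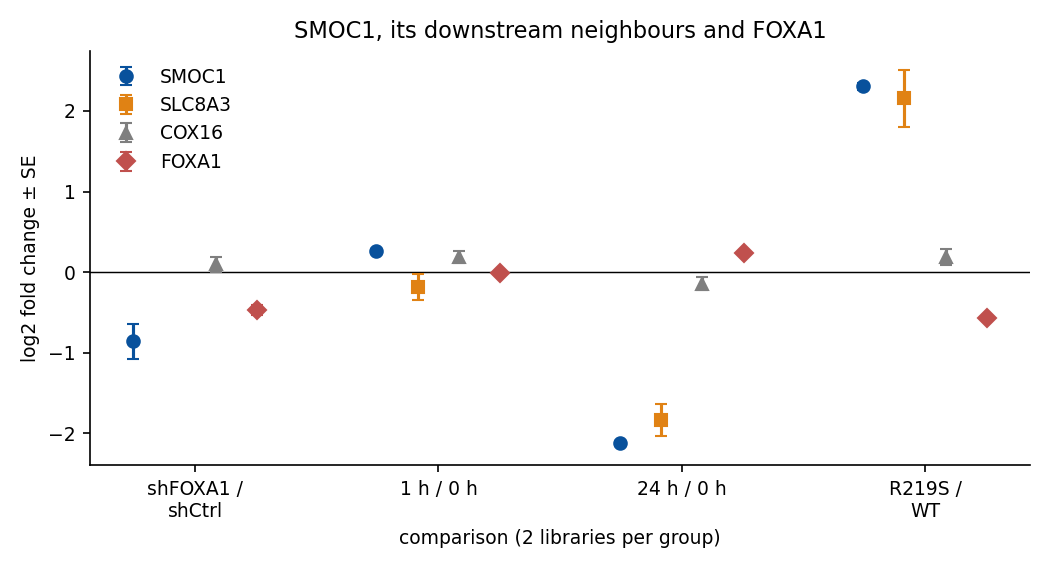
Log2 fold change with its standard error for SMOC1, its downstream neighbours SLC8A3 and COX16, and FOXA1 in the 4 comparisons (2 libraries per group); SLC8A3 was not tested in the knockdown pair. SMOC1 and SLC8A3 lie at -2.13 and -1.83 at 24 h and at 2.31 and 2.16 in R219S, while COX16 stays between -0.14 and 0.19.

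The relatives of SMOC1 in the SPARC family were split in direction at 24 h, and none rose in R219S, where SMOC1 was higher. Of the 6 SPARC-family genes listed (SPARC, SPARCL1, SPOCK1, SPOCK2, SPOCK3 and FSTL1), 6 were tested at 24 h, 2 rose and 2 fell, with a median log2 fold change of -0.12 against 0.01 over all genes tested, of which 22.1% were called higher and 24.8% lower. In R219S, 4 were tested, 0 rose and 3 fell, with a median of -1.52 against 0.00, where 30.5% of all genes were called higher and 31.6% lower. SPOCK1 had 57.5 and 56.6 CPM at 24 h, against 38.9 and 39.1 CPM at 0 h, and rose by 0.55 ± 0.054 on the log2 scale (edgeR adjusted p = 5.5e-10). The same gene had 51.7 and 52.9 CPM in R219S, against 251.0 and 240.8 CPM in WT, and fell by 2.23 ± 0.046 (adjusted p = 1.76e-221), so its direction was opposite to that of SMOC1 in both comparisons. SPOCK3 also rose at 24 h (log2 fold change 0.87 ± 0.13) and fell in R219S (-3.22 ± 0.22). SPOCK2 fell in both, with -1.45 ± 0.11 at 24 h and -0.80 ± 0.13 in R219S. In the knockdown, 2 of 3 tested members fell, SPOCK2 by 1.19 ± 0.100 and SPOCK1 by 1.09 ± 0.13, and 0 rose, against 11.3% of all genes called higher and 12.3% lower. Those shares were 10.7% and 9.12% at 1 h. At 1 h, 1 of 6 was called, and 0 with any 1 library left out.

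Among 22 other matricellular genes, 14 were tested at 24 h, of which 7 rose and 4 fell, against 22.1% of all genes called higher and 24.8% lower. In R219S, 16 of the 22 had a row, and the CCN genes did not. There, 11 were tested, 3 rose and 7 fell, against 30.5% and 31.6% of all genes. The 10 calls in R219S became 6 with DESeq2. CCN5, a secreted CCN-family gene, had the largest change at 24 h, with 2.28 and 2.53 CPM at 24 h, against 0.355 and 0.229 CPM at 0 h (log2 fold change 3.03 ± 0.34, edgeR adjusted p = 8.95e-09). EFEMP1, which encodes the matrix glycoprotein fibulin-3, rose in both, by 2.12 ± 0.071 at 24 h (edgeR adjusted p = 2.29e-21) and by 2.34 ± 0.13 in R219S (adjusted p = 5.09e-59) on the log2 scale. THBS1 likewise rose in both, with 364.0 and 357.8 CPM at 24 h, against 268.8 and 265.1 CPM at 0 h, and with 85.2 and 84.3 CPM in R219S, against 12.8 and 12.5 CPM in WT. Its log2 fold changes were 0.44 ± 0.036 at 24 h and 2.74 ± 0.065 in R219S. TNC, encoding tenascin C, had the directions of SMOC1 and was singled out after its values were seen. It had 20.1 and 17.8 CPM at 24 h, against 51.5 and 45.2 CPM at 0 h, and 7.80 and 7.24 CPM in R219S, against 2.21 and 2.29 CPM in WT. Its log2 fold changes were -1.35 ± 0.074 at 24 h (adjusted p = 4.73e-16) and 1.74 ± 0.16 in R219S (adjusted p = 7.75e-24). At 1 h, 0 of 14 rose and 3 fell, against 10.7% of all genes called higher and 9.12% lower. The falls were led by CCN1, an integrin-binding early-response gene, at -2.35 ± 0.095, where SMOC1 was higher. In the knockdown, 2 of 13 rose and 1 fell, against 11.3% of all genes called higher and 12.3% lower. That count of 3 became 1 without either shCtrl library and 6 without shFOXA1 replicate 2.

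The BMP pathway, which SMOC1 antagonizes in frog, is given by ligands, receptors, antagonists and target genes. Of the genes listed as BMP-family ligands, 9 were tested in each comparison. They include BMP1, which encodes a protease and not a ligand. The list also holds GDF and inhibin genes, such as GDF11, GDF15 and INHBB, so its counts are not of BMP ligands alone. BMP1 was called higher at 24 h (by 0.18 ± 0.055 on the log2 scale), at 1 h (0.22 ± 0.053), in R219S (0.64 ± 0.057) and in the knockdown (0.31 ± 0.080). At 24 h, 1 rose, namely BMP1, and 6 fell, GDF11, GDF15 and INHBB among them, with a median log2 fold change of -0.65. Over all genes, 22.1% were called higher and 24.8% lower. The 7 calls became 3 with DESeq2 and 4 without 0 h replicate 1. The largest fall was that of BMP5, whose mean was at most 1.57 CPM, by 2.26 ± 0.42 (edgeR adjusted p = 3.49e-05). GDF15, a stress-induced ligand and the most abundant of the list, had 94.4 and 92.4 CPM at 24 h, against 157.3 and 148.0 CPM at 0 h (log2 fold change -0.71 ± 0.043). In R219S, 3 rose and 4 fell, against 30.5% and 31.6% of all genes. BMP2 was at 0.047 and 0.350 CPM in R219S, against 2.59 and 2.14 CPM in WT (log2 fold change -3.47 ± 0.40, adjusted p = 1.17e-16), and BMP6 fell by 2.14 ± 0.17. The shares of all genes called higher and lower were 11.3% and 12.3% in the knockdown and 10.7% and 9.12% at 1 h. In the knockdown 2 of 9 rose and 1 fell, a count of 3 that became 1 without either shCtrl library and 5 without shFOXA1 replicate 1. At 1 h 1 rose and 1 fell, a count of 2 that became 1 without 1 h replicate 2.

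Of the 14 receptor and SMAD genes, 13 were tested at 24 h, 7 of which rose and 1 fell, against 22.1% of all genes called higher and 24.8% lower. ACVRL1, a type I receptor, had 5.14 and 5.19 CPM at 24 h, against 1.36 and 1.60 CPM at 0 h (log2 fold change 1.80 ± 0.19, edgeR adjusted p = 2.39e-09). In R219S 3 of 13 rose and 6 fell, against 30.5% and 31.6% of all genes. SMAD9, a BMP-activated SMAD, fell by 1.01 ± 0.081 and the type I receptor BMPR1B rose by 0.93 ± 0.076 on the log2 scale. BMPR1B also rose in the knockdown, by 1.08 ± 0.11, where 2 of 14 members rose and 0 fell (4 calls without shFOXA1 replicate 2). At 1 h 0 of 13 rose and 4 fell, or 2 calls with DESeq2 or without 1 h replicate 2. The shares of all genes called higher and lower were 11.3% and 12.3% in the knockdown and 10.7% and 9.12% at 1 h. Of the other BMP antagonists, 6 were tested at 24 h, with 1 called in each direction, and 6 in R219S, with 2 higher and 3 lower. The 2 calls at 24 h became 1 with DESeq2, without 0 h replicate 2 or without 24 h replicate 1. The 5 calls in R219S became 3 with DESeq2, without either R219S library or without WT replicate 2. CHRD, encoding chordin, rose by 0.64 ± 0.16 at 24 h (adjusted p = 0.00171) and fell by 1.46 ± 0.11 in R219S (adjusted p = 3.03e-33), both opposite to SMOC1.

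Most of the BMP target genes tested rose at 1 h, when SMOC1 was above its 0 h level, and at 24 h, when it was below. At 24 h, 9 of 12 tested targets rose and 1 fell, with a median log2 fold change of 0.62, against 22.1% of all genes called higher and 24.8% called lower. At 1 h, 8 of 12 rose and 1 fell, with a median of 0.59, against 10.7% of all genes called higher and 9.12% called lower. In R219S 6 of 12 rose and 4 fell, with a median of 0.26, against 30.5% of all genes called higher and 31.6% called lower. In the knockdown 1 of 11 rose and 2 fell, against 11.3% of all genes called higher and 12.3% lower. That count of 3 became 1 without shCtrl replicate 2 and 5 without either shFOXA1 library. ID2, an inhibitor of basic helix-loop-helix factors, had 538.4 and 513.7 CPM at 24 h, against 254.0 and 243.5 CPM at 0 h (log2 fold change 1.08 ± 0.037, edgeR adjusted p = 4.1e-21). It had 75.2 and 80.3 CPM in R219S, against 15.3 and 14.1 CPM in WT (log2 fold change 2.40 ± 0.065, adjusted p = 3.79e-165). ATOH8, a basic helix-loop-helix gene, rose by 1.60 ± 0.068 at 24 h. BAMBI, a decoy receptor gene that BMP signalling induces, fell by 2.91 ± 0.22 in R219S, while DLX5, a homeobox gene, rose by 2.03 ± 0.15 there. HEY1, a transcriptional repressor gene, rose by 1.26 ± 0.092 at 1 h. Many of these targets respond to other pathways, and the 1 h and 24 h values share the 0 h libraries.

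**Figure D4:**
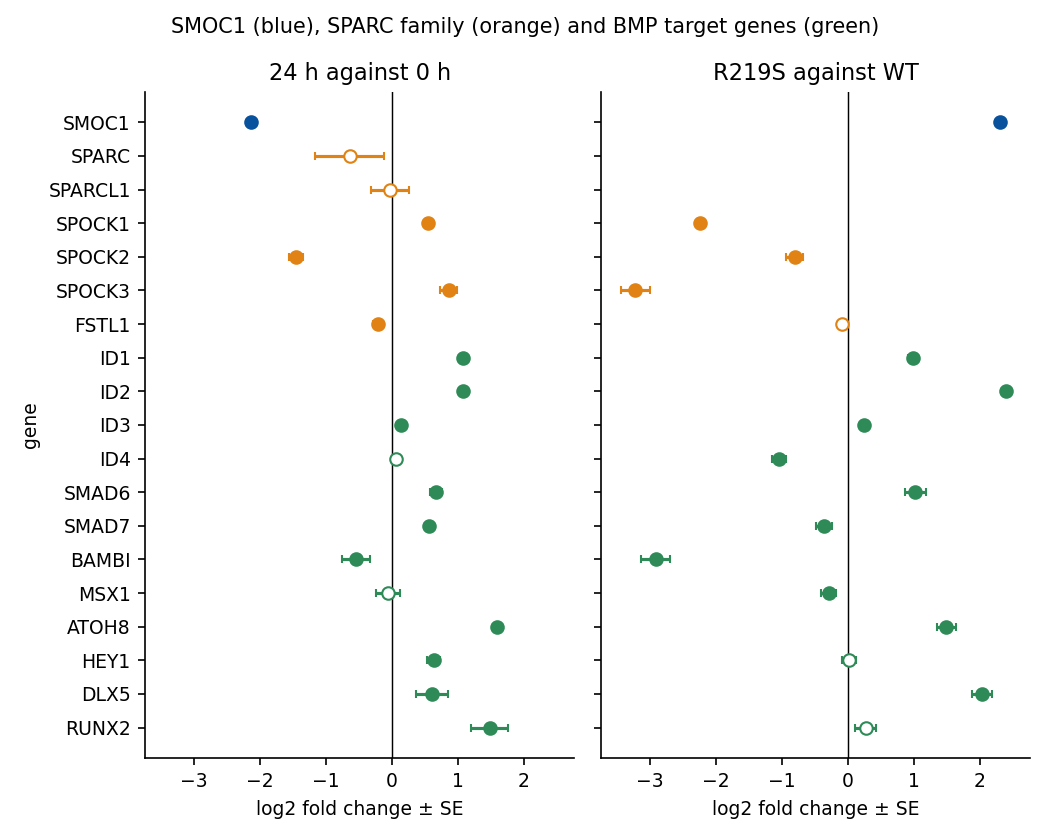
Log2 fold change with its standard error of SMOC1, the tested SPARC-family genes and the tested BMP target genes at 24 h against 0 h (left) and in R219S against WT (right), 2 libraries per group; filled points passed an adjusted p under 0.05, open points did not, and SMOC1 is drawn filled without a test. SPOCK1 and SPOCK3 lie on the side opposite to SMOC1 in both panels, and ID2 and ATOH8 lie to the right in both.

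Genes that share a domain, a compartment or a tissue association with the pair are read against the same shares of all genes, 22.1% higher and 24.8% lower at 24 h and 30.5% higher and 31.6% lower in R219S. Of 9 thyroglobulin type-1 domain genes tested at 24 h, 4 rose and 2 fell, and in R219S 3 rose and 1 fell (2 calls without R219S replicate 1). IGFBP5, an insulin-like growth factor carrier, rose by 1.60 ± 0.38 at 24 h (edgeR adjusted p = 0.000829), to 1.39 and 1.37 CPM at 24 h, against 0.592 and 0.315 CPM at 0 h. EPCAM, an epithelial adhesion molecule gene, had 4.06 and 3.58 CPM in R219S, against 15.4 and 16.1 CPM in WT (log2 fold change -2.04 ± 0.12, adjusted p = 2.34e-52). IGFBP3, a related carrier, rose in both, by 0.68 ± 0.032 at 24 h and by 1.55 ± 0.042 in R219S, to 275.2 and 268.3 CPM, against 92.6 and 93.5 CPM in WT. Of 15 basement membrane genes, 6 rose and 3 fell at 24 h, and 5 rose and 7 fell in R219S. LAMA3, a laminin chain gene, had 7.39 and 6.26 CPM at 24 h, against 71.8 and 66.3 CPM at 0 h (log2 fold change -3.34 ± 0.079, edgeR adjusted p = 2.69e-25), while LAMB3, another laminin chain gene, rose by 1.33 ± 0.094 at 24 h and by 2.45 ± 0.13 in R219S. Of 13 intestinal stem cell genes, the signature that in mouse includes Smoc2, 5 rose and 4 fell at 24 h, and 5 rose and 5 fell in R219S. The 9 calls at 24 h became 5 with DESeq2. ASCL2, a stem cell transcription factor gene, had 2.56 and 3.45 CPM at 24 h, against 0.444 and 0.801 CPM at 0 h (log2 fold change 2.26 ± 0.29, edgeR adjusted p = 1.07e-07). TNFRSF19, a receptor gene, fell by 2.01 ± 0.16 in R219S. SOX9, a stem and progenitor transcription factor, rose by 1.73 ± 0.046 at 24 h and by 0.82 ± 0.051 in R219S. SMOC2 itself stayed at 0 counts.

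The combination of lower at 24 h and higher in R219S was no more frequent than the shares of all genes. Of the 4039 genes called lower at 24 h and tested in both comparisons, 1086, or 26.9%, were called higher in R219S, where 30.6% of all 12598 genes tested in both were higher in R219S. They made up 28.2% of the 3857 called higher in R219S, where 32.1% of all were lower at 24 h. A larger number, 1619, fell in both comparisons, which is 40.1% of the genes lower at 24 h and 40.5% of the 3996 lower in R219S. Of all genes tested in both, 31.7% were lower in R219S and 32.1% lower at 24 h. Another 1319 rose in both, 41.15% of those higher at 24 h and 34.2% of those higher in R219S. The shares of all were 30.6% higher in R219S and 25.4% higher at 24 h. At a change of at least 4-fold, a threshold chosen after the values were seen, 3 genes were lower at 24 h and higher in R219S, namely SMOC1, RBM24 and RNLS, and 0 genes had the reverse pattern. RBM24, an RNA-binding protein gene, had 1.72 and 1.82 CPM at 24 h, against 8.05 and 7.40 CPM at 0 h, and 7.01 CPM in each R219S library, against 1.69 and 1.58 CPM in WT. RNLS, encoding renalase, had 0 and 1 reads at 24 h, against 68 and 65 reads at 0 h, and 22 and 45 reads in R219S, against 2 and 4 reads in WT.

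The genes whose pattern was most like that of SMOC1 were UBE2E3, SF3A3, PSIP1, DUS3L and PRMT3. Likeness was Pearson's r of log2(CPM + 1) over the 14 libraries, each centred on the control group of its table, among 12312 genes tested in all 4 comparisons. The r values ran from 0.984 to 0.992. The libraries, their depth and the shared control groups enter every such value. The changes of these genes were smaller: UBE2E3, a ubiquitin-conjugating enzyme gene, had log2 fold changes of -0.51 ± 0.045 at 24 h and 0.50 ± 0.050 in R219S, and SF3A3, a splicing factor subunit gene, had -0.35 ± 0.042 and 0.41 ± 0.044. These directions were fixed by the choice of the genes, so no test is given. At 1 h, where SMOC1 had a log2 fold change of 0.27, the 5 genes had -0.01 to 0.06.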

How the data were processed

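The authors deposited raw counts of reads per gene, unnormalized, with library totals from 21560090 to 38465155. Per the submitters' processing notes, STAR, featureCounts, DESeq2 and build hg19 were used; versions, annotation and strand setting are not given in the sources used here. Both degradation tables hold the 0 h libraries, with identical counts in all 57905 features. Groups came from the labels, and per-sample columns not used numbered 0.

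For every comparison, its 4 libraries went into a separate edgeR model (version 4.0.16, R 4.3.3) with filterByExpr, TMM scaling and the robust quasi-likelihood F test. Calls needed an adjusted p under 0.05 (Benjamini-Hochberg across the whole table). The 6 degradation libraries were fitted together for 24 h against 1 h. Standard errors are approximate, |log2 fold change| / √F. CPM is TMM-scaled: within the comparison for list genes, and over the 6 degradation libraries for SMOC1 and per-length levels. Length is the union of GENCODE 29 exons. The fits were tested on simulated counts.

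The members and gene lists were chosen with earlier results of these data known. The rule for named genes took up to 3 called genes with the largest change per list and comparison, the most abundant member, FOXA1, the 5 most alike genes and 3 protein-coding neighbours on each side. The gene with the largest called change at 24 h and in R219S is named for each list except the luminal, basal, endothelial and leukocyte markers, and for fibroblast markers in R219S only; the other genes the rule took are named in part, chosen after their values were seen. Alternatives were RLE scaling, DESeq2 1.42.0, no filter on low counts, at least 1 CPM in 2 libraries, each library left out, the replicate number as a block, library totals and a GC and length correction. The labels do not say that replicates were separate cultures, so a p-value covers the spread among these libraries alone, which may be technical. Chi-square per degree of freedom between replicates was 2.04 to 11.8, so no pair agreed within counting noise.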

Additional observations from a re-analysis of the deposited data

Results flagged for a closer look

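The SMOC1 log2 fold change differed between comparisons, with every library on opposite sides of its own control; none of these differences was tested. The value at 24 h was below that at 1 h by 2.39 (24 h minus 1 h, -2.39), where both use the same 0 h libraries. The R219S value exceeded that at 24 h by 4.43 and that of the knockdown by 3.16. The knockdown value minus that at 1 h was -1.13.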

How the results depend on the processing

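The SMOC1 log2 fold change kept its sign in 52 of 52 recomputed values. With each library left out in turn it ran from -1.04 to -0.69 in the knockdown, 0.25 to 0.28 at 1 h, -2.15 to -2.10 at 24 h, 2.29 to 2.33 in R219S and -2.43 to -2.37 for 24 h against 1 h. Against genes of like GC content and length, an alternative chosen after seeing the data, it was 0.23 at 1 h, -2.20 at 24 h and -2.44 for 24 h against 1 h. By library total its 0 h mean was 686.1 CPM. SMOC2 has no log2 fold change under any setting. Genes called in the knockdown numbered 4506, and 1713 to 6793 with a library left out (2421 and 1713 when the first or the second shCtrl library was dropped, 6793 when the first shFOXA1 library was). At 1 h they numbered 3850, 1854 with DESeq2 and 2232 to 3422 with a library left out (2428 without 1 h replicate 1 and 2232 without 1 h replicate 2). The ranges were 7773 to 8246 at 24 h, 7524 to 7787 in R219S and 7405 to 9433 for 24 h against 1 h. The causes were not tested.

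Same-numbered replicates were not paired: their deviations correlated at -0.016 to 0.034. With the replicate block, SMOC1 had log2 fold changes of -0.87 in the knockdown, 0.27 at 1 h, -2.13 at 24 h, 2.31 in R219S and -2.40 for 24 h against 1 h, and 4412, 3909, 9868, 8441 and 9296 genes were called in these comparisons. Of 658 recomputed list counts, 82 moved by over 1.5 times. Of 2508 recomputed values for other named genes, 111 lost their call, 40 gained one and 0 reversed. With 53 to 117 reads per library, SMOC1 is least precise in the knockdown pair.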
